A study of Mus musculus with 4 samples.

Results

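A set of genes for the transcription factors that build and maintain heart muscle were followed in mouse ventricle with and without excess Cdk8. The 10 genes, chosen by symbol, were Gata4, Gata6, Nkx2-5, Tbx5, Tbx20, Hand2, Mef2a, Mef2c, Mef2d and Irx4, each on 1 of the 23847 rows of the expression table, and 10 of the 10 were among the 11888 rows with a mean of at least 1 FPKM that were tested. The study compared, at postnatal day 21, ventricle tissue from male C57BL/6 mice that carry a cardiac-specific Cdk8 overexpression allele (Cdk8Tg, 2 libraries) with wild-type ventricles of the same background, sex and age (WT, 2 libraries). The sources used here name neither the promoter of the transgene nor the animal behind each library. The p-values therefore measure the spread between these 4 libraries, which may be technical. Levels are FPKM, fragment counts scaled by transcript length and by library total, so that genes can be compared per length.

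These factors work as a network. Gata4 and Gata6 are zinc-finger proteins, Nkx2-5 and Irx4 carry homeodomains, Tbx5 and Tbx20 carry a T-box, Hand2 is a basic helix-loop-helix protein and the Mef2 proteins carry a MADS domain. They bind near each other, and in part to one another, at the enhancers of contractile and conduction genes. Factors bound at enhancers engage Mediator, the bridge to the RNA polymerase of protein-coding genes, whose detachable kinase module holds Cdk8. Several also have roles outside muscle cells, as Gata4, Gata6, Tbx20 and Hand2 are also active in cardiac fibroblasts, and Mef2c in endothelium.

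The labels held for the transgene, with Cdk8 at 7309 and 8122 FPKM in Cdk8Tg, against 7.89 and 9.86 in WT. If FPKM were scaled by each library's own total, the step size of its low values gives a depth of 12500000 and 12050000 fragments for Cdk8Tg and of 14300000 and 14100000 for WT. The ventricular light chain gene Myl2 stood at 10760 and 11371 FPKM against 15873 and 15620, and the skeletal muscle regulators Myod1, Myf5, Myf6 and Pax7 were listed at 0 in all 4. The atrial genes Myl7 and Sln set libraries apart within both groups: Myl7 stood at 8.51 and 52.7 FPKM in Cdk8Tg replicates 1 and 2 and at 136 and 11.6 FPKM in WT replicates 1 and 2, and Sln at 0.218, 9.94, 43.8 and 2.08 FPKM in the same order. Calls that were lost without one of these libraries are named for some of the genes and lists below, and not for all. Across all 11888 rows tested with limma on log2(FPKM + 1), 2009 were higher and 949 lower in Cdk8Tg at a Benjamini-Hochberg adjusted p under 0.05, with a median log2 change of 0.13. That balance followed the scaling, with 946 higher and 1385 lower after median-of-ratios scaling, 992 and 1039 after quantile normalization, and 5376 and 624 with equal FPKM sums.

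Of the 10 factors, 4 rose in Cdk8Tg (Tbx20, Irx4, Gata4 and Hand2), 1 fell (Tbx5), and 5 did not pass the test (Gata6, Nkx2-5, Mef2a, Mef2c and Mef2d). Over all rows tested, 16.9% were called higher and 7.98% lower. After median-of-ratios scaling the factors called were the same 4 and 1, where 7.96% and 11.7% of all rows were called. In the authors' deposited table, which gives a q-value per gene, Tbx20, Irx4 and Gata4 were higher and Tbx5 lower at q under 0.05, against 5.53% and 8.43% of 12393 tested genes, while Hand2 was not called (q = 0.158). The group FPKM of that table are on another scale than the libraries. The median log2 change of the 10 factors was 0.26, against 0.13 over all rows. The libraries of the 2 groups did not overlap for 6 factors that were higher in Cdk8Tg and for 1 that was lower, where 49.2% and 21.1% of all rows separated in these directions.

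**Figure D1:**
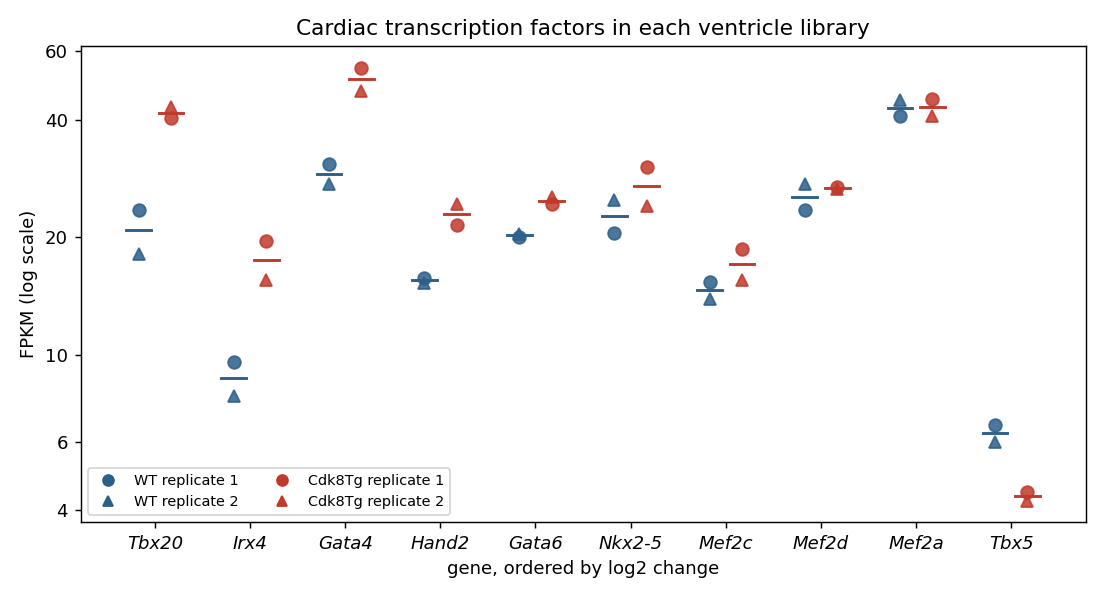
FPKM (log axis) of the 10 factors in each library, WT in blue and Cdk8Tg in red, circles for replicate 1 and triangles for replicate 2, with a bar at each group mean (n = 2). Tbx20, Irx4, Gata4 and Hand2 lie higher in both Cdk8Tg libraries, Tbx5 lies lower in both, and the points of Nkx2-5, Mef2a and Mef2d overlap.

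Among the GATA factors, Gata4 rose and Gata6 did not pass the test. Gata4, which activates contractile genes and is needed for the hypertrophic response of heart muscle cells, stood at 54.4 and 47.4 FPKM in Cdk8Tg, against 30.8 and 27.3 in WT. Both Cdk8Tg libraries were above both WT libraries, and Gata4 had the highest level of the 10 factors in Cdk8Tg, where in WT it was below Mef2a. On the log2 scale it was higher by 0.79 ± 0.11 (SE), with a Benjamini-Hochberg adjusted p of 0.0107 in limma, a ratio of means of 1.75. Gata6, a close relative that shares many target sites with Gata4 and is also active in smooth muscle, stood at 24.3 and 25.3 FPKM in Cdk8Tg, against 20.1 and 20.4 in WT. The Gata6 groups did not overlap either, but the log2 change was 0.28 ± 0.08 with a limma adjusted p of 0.0536. After median-of-ratios scaling the change of Gata6 was 0.14 (adjusted p = 0.261), after quantile normalization 0.18 (0.172) and 0.13 in the authors' deposited table (q = 0.74). Gata6 was called on the equal-sum scale (0.49, adjusted p = 0.00934) and when only rows of at least 5 FPKM were tested (adjusted p = 0.043). On GRCm38, the build named mm10 in the submitters' notes, Gata4 lies on the minus strand of chromosome 14 at 63198922 to 63271692, and Gata6 on the plus strand of chromosome 18 at 11052064 to 11085635. Exons of Gata6 share 93 bases with 1010001N08Rik on the opposite strand.

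The share of Gata4 within this pair, which a common scale factor for a library cannot alter, separated the groups. Gata4 made up 69.1% and 65.2% of the summed Gata4 and Gata6 FPKM in the Cdk8Tg libraries and 60.6% and 57.2% in WT, with group means of 67.2% ± 2.78 and 58.9% ± 2.38 (SD, n = 2). The lowest Cdk8Tg library was above the highest WT library. The difference was 8.26 percentage points, with an exact two-sided permutation p of 0.333, the smallest that 2 against 2 libraries allow. In the authors' deposited table the group values gave a difference of 8.35 points.

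The T-box genes went in opposite directions. Tbx20, a T-box factor that maintains adult heart muscle and can repress as well as activate genes, stood at 40.3 and 43.1 FPKM in Cdk8Tg, against 23.6 and 18.1 in WT. The groups were well apart, and the mean in Cdk8Tg was 2.00 times that in WT. On the log2 scale it was higher by 0.98 ± 0.14 (SE), with a Benjamini-Hochberg adjusted p of 0.0108 in limma. Tbx5, which is required for the atria, the left ventricle and the conduction system and is the gene mutated in Holt-Oram syndrome, stood at 4.45 and 4.24 FPKM in Cdk8Tg, against 6.62 and 6.00 in WT. Both Cdk8Tg libraries were below both WT libraries. The log2 change of Tbx5 was -0.45 ± 0.10 (limma adjusted p = 0.0303), and it was -0.57 after median-of-ratios scaling and -0.70 in the authors' deposited table (q = 0.00712). Tbx5 had the lowest level of the 10 factors in both groups, and 33.9% of the tested rows were lower. If its longest annotated transcript was the one measured, the Tbx5 values rest on 219 and 201 fragments in Cdk8Tg and on 373 and 333 in WT, and with the shortest transcript on 34 to 62. The call of Tbx5 was lost whichever library was left out, with adjusted p from 0.0578 to 0.14 and log2 changes from -0.51 to -0.39. It was also lost on the equal-sum scale (-0.26, adjusted p = 0.0711) and when low rows were kept in the test (adjusted p = 0.0742). Within each library the ratio of Tbx20 to Tbx5 FPKM was 9.06 and 10.2 in Cdk8Tg against 3.56 and 3.02 in WT. Tbx20 lies on chromosome 9 at 24718138 to 24774303 (minus strand) and Tbx5 on chromosome 5 at 119832668 to 119885219 (plus strand).

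Of the homeodomain genes, Irx4 rose and Nkx2-5 did not pass the test. Irx4, an Iroquois factor that marks ventricular muscle, stood at 19.5 and 15.5 FPKM in Cdk8Tg, against 9.60 and 7.85 in WT. The lowest Cdk8Tg library was above the highest WT library, and the ratio of means was 2.01. On the log2 scale it was higher by 0.93 ± 0.15 (SE), with a Benjamini-Hochberg adjusted p of 0.0142 in limma. Irx4 was not called when low rows were kept in the test (adjusted p = 0.0559). In WT, Irx4 ranked ninth of the 10 factors by level and below Mef2c, whereas in Cdk8Tg it stood beside Mef2c, within the spread of the libraries. Nkx2-5, the homeodomain factor of the NK class that partners Gata4 and Tbx5, stood at 30.2 and 24.0 FPKM in Cdk8Tg, against 20.5 and 24.9 in WT. The groups of Nkx2-5 overlapped, and its log2 change of 0.24 ± 0.15 did not pass the test (limma adjusted p = 0.26). It was 0.10 after median-of-ratios scaling (adjusted p = 0.671) and 0.099 in the authors' deposited table (q = 0.832), while the equal-sum scale called it (0.46, adjusted p = 0.0446). With 1 library left out it ran from 0.085 (without Cdk8Tg replicate 1) and 0.11 (without WT replicate 1) to 0.38 (without WT replicate 2) and 0.40 (without Cdk8Tg replicate 2). Irx4 lies on chromosome 13 at 73260479 to 73269608 (plus strand) and Nkx2-5 on chromosome 17 at 26838664 to 26845009 (minus strand).

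Hand2, the helix-loop-helix factor best known from the right ventricle of the embryo, rose by less. It stood at 21.5 and 24.4 FPKM in Cdk8Tg, against 15.8 and 15.3 in WT, with no overlap. On the log2 scale it was higher by 0.53 ± 0.09 (SE), with a Benjamini-Hochberg adjusted p of 0.0181 in limma, and 0.39 after median-of-ratios scaling (adjusted p = 0.0358). The call was lost without Cdk8Tg replicate 2 (adjusted p = 0.0609), without WT replicate 1 (0.0787), without WT replicate 2 (0.104) and with no filter (0.052). Hand2 lies on chromosome 8 at 57320983 to 57324633 (plus strand). Its exons share 461 bases with Hand2os1 on the opposite strand. The labels state stranded libraries but not whether counting used the strand. If it did not, reads of a gene and its opposite-strand partner cannot be told apart, here and for Gata6, Mef2a and Mef2d. Its relative Hand1 was at 0.0435 and 0.0899 FPKM in Cdk8Tg and listed at 0 in both WT libraries.

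The 3 Mef2 genes did not pass the test. Mef2a, the main Mef2 gene of the postnatal heart, stood at 45.3 and 40.9 FPKM in Cdk8Tg, against 40.9 and 44.9 in WT, and its log2 change of 0.0071 ± 0.0948 (SE) had a Benjamini-Hochberg adjusted p of 0.961 in limma. Mef2d, which takes part in the stress response of heart muscle, stood at 26.96 and 26.7 FPKM in Cdk8Tg, against 23.4 and 27.4 in WT, with a log2 change of 0.077 ± 0.10 (adjusted p = 0.591). Both genes overlapped between groups, and the sign of each turned after median-of-ratios scaling, to -0.14 and -0.066. Mef2c, required for the early heart tube, stood at 18.6 and 15.5 FPKM in Cdk8Tg, against 15.4 and 13.9 in WT. Its libraries just separated, with a log2 change of 0.20 ± 0.12 (adjusted p = 0.238), and it ran from 0.08 (without Cdk8Tg replicate 1) to 0.33 (without Cdk8Tg replicate 2) with 1 library left out. It was 0.065 after median-of-ratios scaling (adjusted p = 0.729) and 0.063 in the authors' deposited table (q = 0.887), while the equal-sum scale called it (0.41, adjusted p = 0.0293). Mef2b was at or below 0.205 FPKM in each library. Exons of Mef2a share 302 bases with Lysmd4, and those of Mef2d share 531 bases with 1700113A16Rik, each on the opposite strand. Lysmd4 was at 7.49 to 10.3 FPKM and 1700113A16Rik at 9.42 to 11.97 FPKM. On GRCm38 Mef2a lies on chromosome 7 at 67231163 to 67372858 (minus strand), Mef2c on chromosome 13 at 83504034 to 83667080 (plus strand) and Mef2d on chromosome 3 at 88142372 to 88172086 (plus strand).

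Mef2a made up 49.9% and 49.2% of the summed Mef2a, Mef2c and Mef2d FPKM in Cdk8Tg, against 51.3% and 52.0% in WT. The difference in the Mef2a share was -2.13 percentage points, with no overlap and an exact two-sided permutation p of 0.333, the smallest possible. Mef2d made up 29.7% and 32.1% in Cdk8Tg, against 29.4% and 31.8% in WT. Mef2c made up 20.5% and 18.7% against 19.3% and 16.1%. The shares of Mef2d and Mef2c overlapped between groups (exact permutation p = 0.667 for each).

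**Figure D2:**
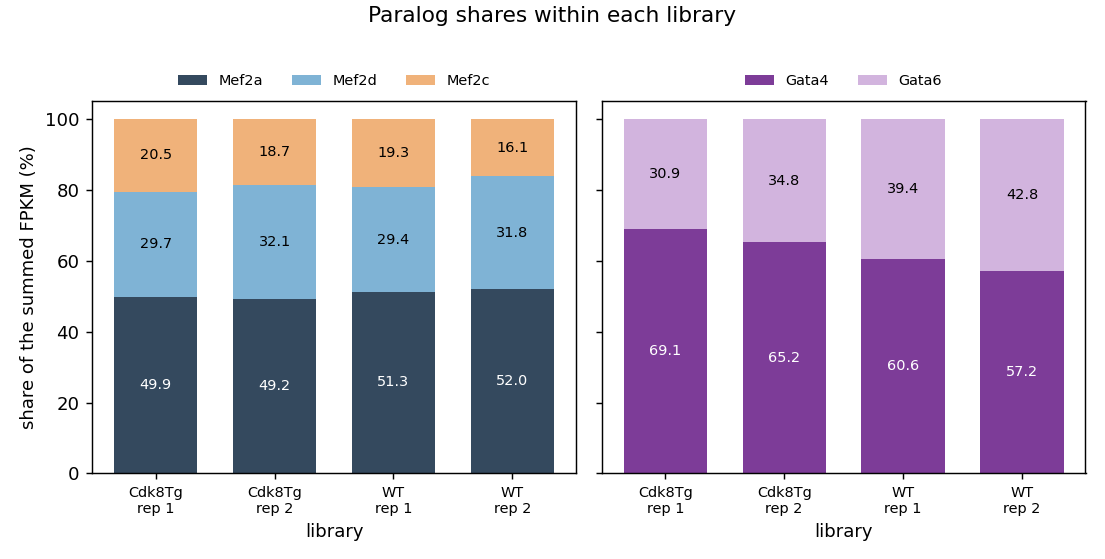
Share (%) of each paralog in the summed FPKM of Mef2a, Mef2d and Mef2c (left) and of Gata4 and Gata6 (right), 1 bar per library. The Mef2a share stays between 49.2% and 52.0%, while the Gata4 share is 65.2% to 69.1% in Cdk8Tg and 57.2% to 60.6% in WT.

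Ordered by level in WT, Mef2a was first at 42.9 ± 2.80 FPKM (SD, n = 2), followed by Gata4, Mef2d, Nkx2-5, Tbx20 and Gata6, whose neighbours in this order overlapped in their libraries. Hand2 and Mef2c overlapped each other below these, and Irx4 at 8.73 ± 1.24 and Tbx5 at 6.31 ± 0.440 FPKM came last without overlap. In Cdk8Tg the order was headed by Gata4 at 50.9 ± 4.93 FPKM, then Mef2a at 43.1 ± 3.11 and Tbx20 at 41.7 ± 1.97, the latter pair overlapping. Nkx2-5 and Mef2d overlapped below them, then Gata6 and Hand2, then Irx4 and Mef2c, and Tbx5 came last at 4.34 ± 0.149 FPKM. The summed FPKM of the 10 factors came to 285.5 and 267.1 in Cdk8Tg, against 206.6 and 206.1 in WT. Ratios to Mef2a within a library carry no common scale factor, and they were 1.20 and 1.16 for Gata4 in Cdk8Tg against 0.754 and 0.609 in WT. The ratio of Irx4 to Mef2a was 0.431 and 0.380 against 0.235 and 0.175, and that of Tbx5 to Mef2a was 0.0982 and 0.104 against 0.162 and 0.134. Each of these ratios separated the groups in the direction given by the FPKM. Mef2a itself changed by only 0.0071 on the log2 scale, so the ratios largely repeat the FPKM changes and are no separate support. The ratio of Gata6 to Mef2a, at 0.536 and 0.619 against 0.491 and 0.455, separated the groups too, though Gata6 did not pass the test.

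**Figure D3:**
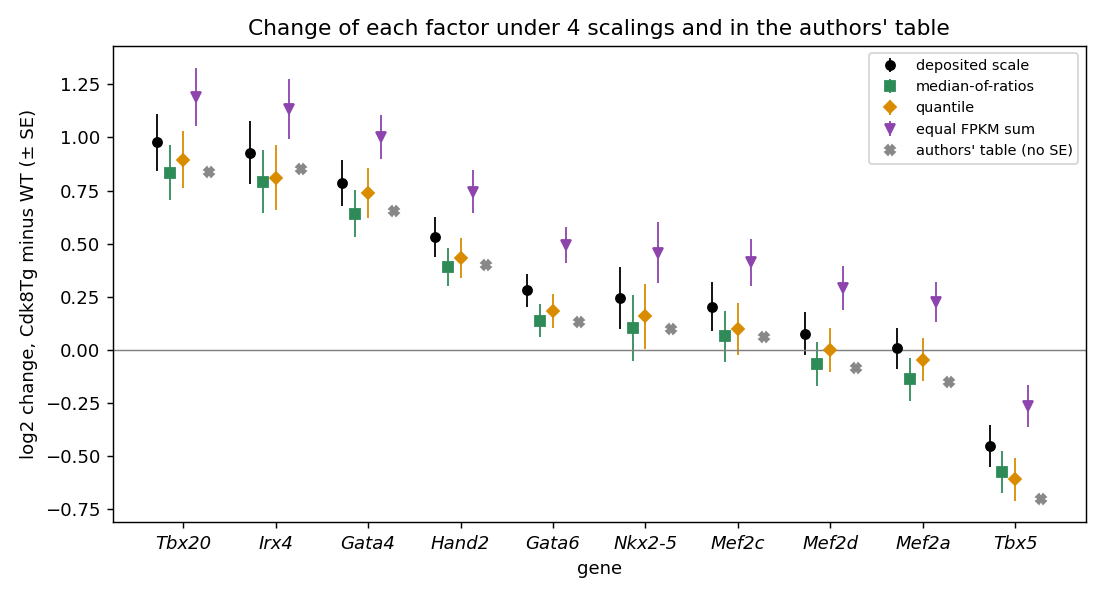
log2 change (Cdk8Tg minus WT, bars ± SE from limma) of each factor on the deposited scale, after median-of-ratios scaling, after quantile normalization, with equal FPKM sums and in the authors' table (no SE). Tbx20, Irx4, Gata4 and Hand2 are above 0 and Tbx5 below 0 in all 5, while Mef2a and Mef2d change sign.

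The start-site regions of Tbx20, Irx4 and Hand2, which rose, are shown with that of Mef2a, which did not pass the test, so that the sequence around genes that differ in response can be compared. Each runs from 250 bases before the RefSeq start to 10 bases after it (GRCm38.p6), 5′ to 3′ on the gene's strand, at chr9:24774294-24774553 (minus) for Tbx20, chr13:73260247-73260506 (plus) for Irx4, chr8:57320733-57320992 (plus) for Hand2 and chr7:67372849-67373108 (minus) for Mef2a. Capitals mark matches on either strand to the motifs named after the sequences.
Tbx20: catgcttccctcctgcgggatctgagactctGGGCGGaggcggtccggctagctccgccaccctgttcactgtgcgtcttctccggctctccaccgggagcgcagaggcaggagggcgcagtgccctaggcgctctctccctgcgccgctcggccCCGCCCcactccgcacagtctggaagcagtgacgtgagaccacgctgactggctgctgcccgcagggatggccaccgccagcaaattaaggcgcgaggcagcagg
Irx4: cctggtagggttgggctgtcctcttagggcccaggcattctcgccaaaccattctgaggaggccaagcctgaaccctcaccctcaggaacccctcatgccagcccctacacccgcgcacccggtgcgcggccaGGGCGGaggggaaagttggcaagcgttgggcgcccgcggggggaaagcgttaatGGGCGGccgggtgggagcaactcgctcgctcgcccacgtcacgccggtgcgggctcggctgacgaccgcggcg
Hand2: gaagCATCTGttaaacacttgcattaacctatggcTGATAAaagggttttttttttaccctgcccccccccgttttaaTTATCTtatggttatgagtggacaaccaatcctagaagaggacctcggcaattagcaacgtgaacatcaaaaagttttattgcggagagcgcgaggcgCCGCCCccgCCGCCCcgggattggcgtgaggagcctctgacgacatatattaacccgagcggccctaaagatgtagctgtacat
Mef2a: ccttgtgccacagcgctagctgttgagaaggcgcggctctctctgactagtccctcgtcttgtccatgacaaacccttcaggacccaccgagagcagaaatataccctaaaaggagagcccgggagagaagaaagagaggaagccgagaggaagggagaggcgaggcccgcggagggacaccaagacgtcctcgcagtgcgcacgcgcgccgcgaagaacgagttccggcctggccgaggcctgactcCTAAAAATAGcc
The motifs searched in the full windows of 300 bases were the GATA word AGATAA with its variants, which are AGATAG, then TGATAA and lastly TGATAG, the Nkx2-5 word TNAAGTG, the T-box word AGGTGT, the Hand word CATCTG, the TATA word TATAAA, the SP1 word GGGCGG, the MEF2 element and the CArG box. The windows of Tbx20 and Irx4 held 2 SP1 words each and no other match, where 35.9% of 32544 RefSeq windows hold at least 1 SP1 word. The window of Mef2d, which did not pass the test, also held 2 SP1 words and no other match. Of the 9 windows of the members, 5 held an SP1 word. The Hand2 window held 2 GATA words (29.6% of all windows hold 1), a Hand word (17.1%) and 2 SP1 words. The Mef2a window held a MEF2 element that begins 2 bases before the start, and 0.559% of all windows hold one. None of the matches overlapped another. Windows were found for 7 of the 10 genes (Mef2c has 3), leaving Gata4, Gata6 and Tbx5. A match describes the letters of a window and is neither a site nor a cause.

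Paralogs of the 10 factors were mostly low. Of 18 such genes, 8 passed the filter of a mean of 1 FPKM, and their median log2 change was 0.04, against 0.13 over all rows. Of the 8, 1 was called higher and 0 lower, where 16.9% and 7.98% of all rows were called. The gene called was Irx5, an Iroquois gene that shapes the repolarization gradient of the ventricle wall, at 5.85 and 4.45 FPKM in Cdk8Tg, against 2.886 and 1.498 in WT. On the log2 scale it was higher by 0.97 ± 0.24 (SE), with a Benjamini-Hochberg adjusted p of 0.0388 in limma, and the call was lost after median-of-ratios scaling (0.86, adjusted p = 0.0592) and after quantile normalization (0.82, 0.0736). It was also lost without Cdk8Tg replicate 1 (0.0965), Cdk8Tg replicate 2 (0.065) or WT replicate 2 (0.125). Irx3, which supports the ventricular conduction system, stood at 11.6 and 8.89 FPKM against 10.3 and 5.59, with overlap. Tbx3, of the conduction system, stood at 2.07 and 1.84 FPKM against 2.19 and 2.85, and Tbx18, of the sinus node and the epicardium, at 2.08 and 2.11 FPKM against 1.37 and 1.77. Neither passed the test. Nkx2-3 and Nkx2-6 were listed at 0 in all 4 libraries.

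Over all rows, the median log2 change was 0.13, and 16.9% were called higher and 7.98% lower. After median-of-ratios scaling these shares were 7.96% and 11.7%. Of 28 other heart transcription factors, 25 were tested, 6 rose and 1 fell, with a median log2 change of 0.12. After median-of-ratios scaling the counts were 2 and 2, without WT replicate 1 they were 0 and 1, and without WT replicate 2 they were 0 and 0. Klf15, a metabolic factor that restrains hypertrophy, stood at 16.5 and 18.5 FPKM in Cdk8Tg, against 29.3 and 44.4 in WT, and it changed by -1.01 ± 0.20 (SE; limma, Benjamini-Hochberg adjusted p = 0.0227). That call was lost without Cdk8Tg replicate 1 (adjusted p = 0.05), Cdk8Tg replicate 2 (0.0567) or WT replicate 2 (0.0664). Heyl, a target of Notch signalling, rose by 0.80 ± 0.13, from 7.35 and 6.34 to 11.3 and 14.01 FPKM. Meis2, a homeodomain factor, rose by 0.48, and its call was lost after median-of-ratios scaling (0.35, adjusted p = 0.0571), after quantile normalization (0.0711) and without Cdk8Tg replicate 2 (0.0848). Heyl and Meis2 lost their calls without WT replicate 1, with adjusted p of 0.0528 and 0.11, and without WT replicate 2, with 0.0915 and 0.101.

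Among 28 cofactors and regulators of the 10 factors, 26 were tested, 5 rose and 1 fell. Over all rows 16.9% rose and 7.98% fell. The median of the list was 0.14, against 0.13 over all rows. After median-of-ratios scaling, where 7.96% and 11.7% of all rows were called, the counts of the list were 2 and 2. They were 1 and 1 without Cdk8Tg replicate 2, 1 and 0 without WT replicate 1, and 0 and 0 without WT replicate 2. Zfpm1, a FOG protein that binds GATA factors, stood at 6.60 and 6.80 FPKM in Cdk8Tg, against 3.82 and 4.28 in WT. The log2 change of Zfpm1, 0.61 ± 0.10, passed limma (Benjamini-Hochberg adjusted p = 0.0154). Zfpm1 was not called in the authors' deposited table (q = 0.0661) or with no filter (limma adjusted p = 0.0525). Its relative Zfpm2, the FOG protein best known from the heart, did not pass the test (0.32 ± 0.11, adjusted p = 0.0846). Ankrd1, a nuclear repeat protein of stressed muscle, stood at 1492 and 2842 FPKM against 534 and 364, and its log2 change was 2.22 ± 0.34. Fhl2, a LIM protein that binds several of these factors and their partners, stood at 628 and 454 FPKM in Cdk8Tg, against 1371 and 1194 in WT. Its log2 change was -1.26 ± 0.18 (adjusted p = 0.0113). The calls of Ankrd1 and Fhl2 were also lost with no filter (limma adjusted p = 0.0598 and 0.0539). Of the histone deacetylases that bind Mef2 proteins, Hdac4, Hdac5, Hdac7 and Hdac9 had log2 changes of -0.30, 0.14, 0.058 and 0.14, none past the test. Hdac1, a deacetylase of another class, rose by 0.42, a call lost after median-of-ratios scaling (0.28, adjusted p = 0.0819), after quantile normalization (0.0758) and without Cdk8Tg replicate 2, WT replicate 1 or WT replicate 2 (0.107, 0.0897 and 0.162). Calls of Zfpm1 and Fhl2 were lost without WT replicate 1 (adjusted p = 0.0777 and 0.0662) and without WT replicate 2 (0.0728 and 0.0683), that of Ankrd1 without WT replicate 2 (0.0829), and that of Zfpm1 also without Cdk8Tg replicate 2 (0.0558).

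Genes held to be targets of these factors changed in both directions. Of 35, 34 were tested, 8 rose and 13 fell, where 16.9% of all rows rose and 7.98% fell. The median log2 change was -0.24, against 0.13 over all rows. Bop1 is on the list only through the older name of Smyd1, and Pdlim7 is a partner of Tbx5 rather than a target. Without this pair the counts were 6 and 13 of 32 with a median of -0.29. For the whole list the counts were 4 and 4 without WT replicate 1 and 2 and 2 without WT replicate 2. Tnni3, adult cardiac troponin I, fell by 1.75 on the log2 scale, Hrc, a calcium-binding protein of the sarcoplasmic reticulum, by 1.58 (call lost without WT replicate 2, adjusted p = 0.0502), and Adra1a, an alpha-1 adrenergic receptor, by 2.48. Adra1a stood at 0.252 and 0.305 FPKM in Cdk8Tg, against 4.57 and 8.11 in WT. Ccnd2, the cyclin D2 gene, stood at 84.1 and 77.4 FPKM in Cdk8Tg, against 26.1 and 19.4 in WT, and rose by 1.80 ± 0.15 (SE; limma, Benjamini-Hochberg adjusted p = 0.00407). Gja5, which encodes a connexin of conduction tissue, stood at 3.07 and 2.80 FPKM against 3.06 and 2.36, with overlap. Whether these changes follow from those of the 10 factors was not tested.

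**Figure D4:**
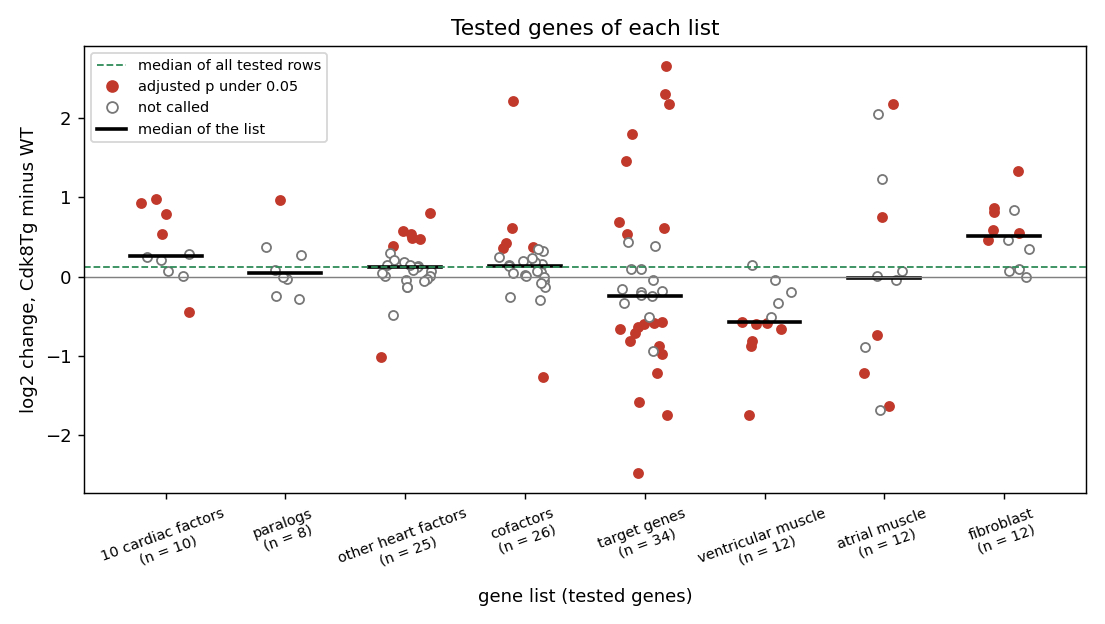
log2 change (Cdk8Tg minus WT) of each tested gene of 8 lists, filled red where the adjusted p is under 0.05, with the list median as a black bar and the median of all tested rows (0.13) as a dashed line. The 10 factors have a median of 0.26, the target genes of -0.24, the ventricular muscle genes of -0.58 and the fibroblast genes of 0.51. Most ventricular muscle genes are also among the target genes.

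Markers of some cell types differed between the groups and those of others did not, where 16.9% of all rows were called higher and 7.98% lower. Of 12 fibroblast genes, all tested, 6 rose and 0 fell (4 and 0 after median-of-ratios scaling), with a median of 0.51, and their summed FPKM was 1626 and 2084 in Cdk8Tg, against 1452 and 1390 in WT. A pair of the defining ones, named after their values were seen, were Pdgfra at 15.0 and 16.5 FPKM against 10.4 and 11.9, and Tcf21 at 11.1 and 11.9 FPKM against 8.30 and 6.40. Their log2 changes were 0.47 and 0.59, beside 0.79, 0.98 and 0.53 for Gata4, Tbx20 and Hand2 and 0.28 for Gata6, which did not pass the test. Ddr2 and Dpt of the same list had log2 changes of 0.073 and 0.092, neither past the test. The fibroblast genes of highest level, Dcn, Gsn and Col3a1, had log2 changes of 0.35, -0.0085 and 0.46, none past the test. Without Cdk8Tg replicate 2 or without WT replicate 1, 2 fibroblast genes were called higher, without WT replicate 2 there were 0, and Pdgfra was called in 1 and Tcf21 in 1 of the 4 fits with a library left out. Of 12 ventricular muscle genes 7 fell and 0 rose, with a summed FPKM of 39070 and 37170 against 58110 and 55700. Most of these genes are also on the list of targets, and of those that fell only Ttn is not. The falls of the 2 lists are therefore largely the same result. Of the ventricular genes of highest level, the troponin T gene Tnnt2 fell by 0.59 on the log2 scale. Myl2 (-0.51, adjusted p = 0.0504) and Actc1 (-0.19) did not pass. Without WT replicate 1 or WT replicate 2, 2 of the ventricular genes were called lower, and Tnnt2 was not among them (adjusted p = 0.222 and 0.248). In bulk tissue, fewer cells of a type and less RNA per cell cannot be told apart. Of 14 atrial genes, 12 were tested, 2 rose and 3 fell. Those that fell were Kcnj3, at 5.98 and 5.05 FPKM in Cdk8Tg against 18.1 and 20.4 in WT, Chrm2 and Stard10. Their log2 changes were -1.64, -1.22 and -0.73. The summed FPKM of the atrial list was 1179 and 2784 in Cdk8Tg, against 954 and 483 in WT, with Nppa the largest term in each library. The atrial ligand gene Bmp10 was listed at 0 in all 4 libraries. Nppa, the atrial natriuretic peptide gene that also rises in stressed ventricle, stood at 780 and 2072 FPKM against 395 and 199 and rose by 2.18, and Pam, which processes peptides, rose by 0.75. Nppa was not called without Cdk8Tg replicate 2, WT replicate 1 or WT replicate 2 (adjusted p = 0.0739, 0.0691 and 0.165), nor Pam without WT replicate 1 or WT replicate 2 (0.0741 and 0.112). Myl4 stood at 72.5 and 281 FPKM against 94.3 and 11.7, with overlap. Of 12 endothelial genes 0 were called, with a summed FPKM of 1087 and 1226 against 1293 and 1365. Of 8 tested leukocyte genes 2 fell and 0 rose, of 7 conduction genes 2 fell and 0 rose, of 12 smooth muscle and pericyte genes 2 rose and 1 fell, and of 5 epicardial genes 0 were called. Among these, the macrophage genes Csf1r and Mrc1 fell by 0.52 and 0.55, and the smooth muscle actin gene Acta2 (0.59), the conduction gene Cacna1g (-0.54), the epicardial gene Aldh1a2 (0.40) and the endothelial genes Fabp4, Cdh5 and Pecam1 (-0.24, -0.097 and -0.074) did not pass. No leukocyte gene was called without WT replicate 1 or WT replicate 2, and no conduction gene without any 1 of the 4 libraries. The part of these cells in the changes of the 10 factors was not tested.

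Leaving out 1 library at a time, with the lone library assumed to vary like the other group, showed which of the calls rest on few samples. Gata4, Tbx20 and Irx4 kept their calls without Cdk8Tg replicate 1, without Cdk8Tg replicate 2 and without WT replicate 1. No fit left out Cdk8Tg replicate 2 and WT replicate 1 together, and the part of atrial tissue was not tested. Without WT replicate 2 none of the 10 factors passed, with adjusted p of 0.0501 for Tbx20, 0.0743 for Gata4 and 0.0829 for Irx4 and log2 changes of 0.80, 0.70 and 0.80. The fit then had 1 residual degree of freedom, and over all rows only 162 were called higher and 157 lower.

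**Figure D5:**
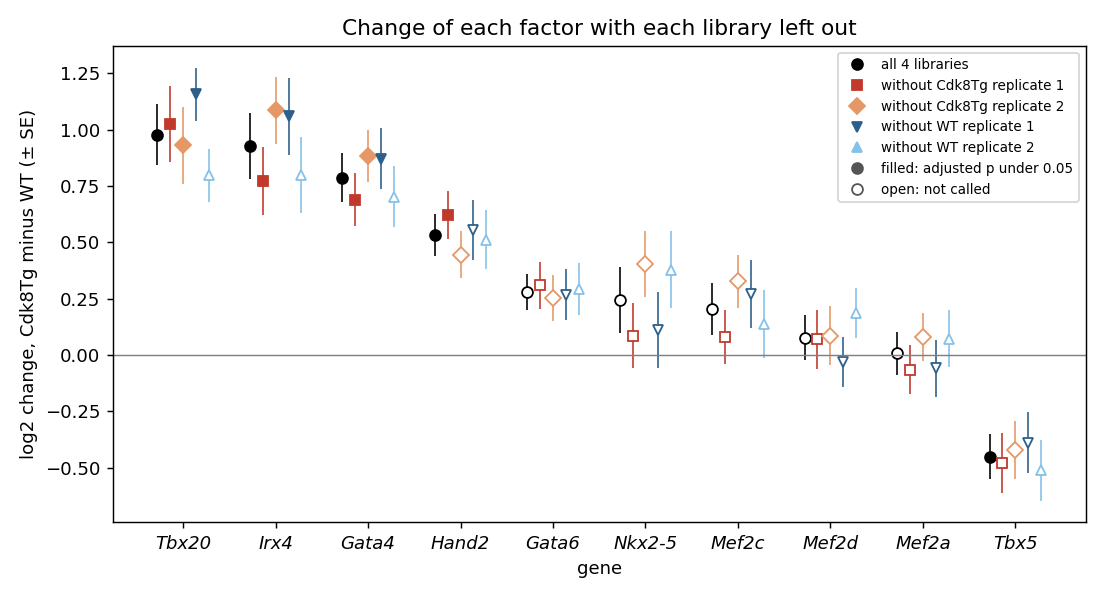
log2 change (Cdk8Tg minus WT, bars ± SE) of each factor with all 4 libraries and with each library left out, filled where the adjusted p is under 0.05. Tbx20, Irx4, Gata4 and Hand2 are positive and Tbx5 negative in each fit, and without WT replicate 2 all symbols are open.

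By the distance between log2 values centred on their mean over the 4 libraries, the genes nearest to Gata4, the factor with the smallest p, were Ncam1 (distance 0.0414), S1pr2 (0.0692) and Morn2 (0.0696). Ncam1, an adhesion molecule, stood at 6.50 and 5.68 FPKM in Cdk8Tg, against 3.31 and 2.75 in WT. S1pr2, a sphingosine phosphate receptor, stood at 5.05 and 4.22 FPKM against 2.66 and 2.11, and Morn2 at 15.1 and 14.004 FPKM against 8.77 and 7.60. Calls of the 3 were lost without WT replicate 2, that of S1pr2 also without WT replicate 1, and Morn2 had q = 0.349 in the authors' deposited table. The nearness describes these 4 libraries only.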

How the data were processed

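RNA-seq of polyadenylated RNA from 4 ventricle samples was used, with groups and replicate numbers from the sample titles. Per the submitters' processing notes, the authors aligned reads to mm10 with TopHat (1.0.0) and used Cufflinks and Cuffdiff. For the annotation, the strand setting, the scaling between libraries and the other versions: not given in the sources used here. The authors deposited FPKM per gene and library, and a comparison table with group FPKM and, per the file headers, a p-value and a q-value per gene.

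Rows with a mean of at least 1 FPKM (11888 of 23847) were fitted on log2(FPKM + 1) with limma 3.58.1 in R 4.3.3 (trended empirical Bayes, 2 residual degrees of freedom, Benjamini-Hochberg over all tested rows, calls at adjusted p under 0.05). This scale understates changes of low genes. The fit was tested on values simulated for this comparison over 11888 genes. It recovered 100% of 100 genes changed by 1 on the log2 scale and 100% of 100 changed by 2, with 10 false calls among the other genes. The simulated noise was independent between genes and had the average spread of genes at the same level. The recovery in the real libraries, where spread differs between genes, can be lower. Depth was estimated from FPKM under 0.1 in genes with 1 transcript of over 800 bases, of which 59.6% to 66.1% fell within 0.1 of a whole fragment. Arms of 2 libraries limit the precision. The alternatives were pseudocounts of 0.1 and 5, no filter or 5 FPKM, 3 other scalings, 2 variance models, the replicate block, each library left out and the authors' calls.

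The members and lists were chosen with earlier results of these data known. Named genes were all 10 members, Cdk8, up to 4 genes per related list by smallest p, up to 3 per cell marker list by level with Myl7, Myl4 and Sln, and the 3 nearest to the member with the smallest p. Symbols on several rows (252) were not named. Other names were chosen after their values were seen, and some genes that the rule names are not reported here. Promoters are RefSeq's (GRCm38.p6), and gene positions are from GENCODE M21.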

Additional observations from a re-analysis of the deposited data

How the results depend on the processing

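Gata4, Tbx20, Irx4 and Hand2 stayed positive and Tbx5 negative under each alternative run. With no filter on low values 2 factors were called higher (Gata4 and Tbx20) and 0 lower. With equal FPKM sums 7 were called higher and 0 lower, where 5376 and 624 of all 11888 rows were called. Leaving out each library in turn gave 0 to 4 called higher and 0 called lower. Signs turned for factors near 0: Mef2a was -0.14 after median-of-ratios scaling, -0.045 after quantile normalization, -0.15 in the authors' deposited table, -0.065 without Cdk8Tg replicate 1 and -0.058 without WT replicate 1, within -0.065 to 0.079 over the libraries left out. Mef2d was -0.066, -6e-04 and -0.083 under the first 3 of these, and ran from -0.032 (without WT replicate 1) to 0.19 over the libraries left out. Irx3 ran from -0.011 (without WT replicate 2) to 0.76 (without WT replicate 1). The Mef2a share differed by -1.45 points after quantile normalization, and by -2.50 to -1.76 points with 1 library left out. The cause of these shifts was not tested. The replicate numbers do not pair the samples by any label, and deviations of same-numbered libraries correlated at -0.0256 across genes. With the replicate block 4 factors were called higher and 1 lower, as without it, and over all rows 1855 and 970. With no filter, 641 and 414 of all rows were called. Irx5, Heyl, Klf15, Meis2, Zfpm1, Ankrd1, Fhl2, Hdac1, Ncam1 and S1pr2 lost their calls in that fit. Tnni3, Hrc, Adra1a, Ccnd2 and Morn2 kept theirs. Meis2 and Hdac1 were not called in the authors' deposited table (q = 0.187 and 0.378). Of Tbx5, Irx4 and Hand2, whose fragments were estimated, Tbx5 had the lowest estimates with the shortest transcript, but not in WT with the longest.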
